A study of Homo sapiens with 2 samples.

Results

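GAPDH and 9 related glycolysis genes were examined for open chromatin in CAMA-1, out of 20033 protein-coding genes annotated by GENCODE. They were chosen by name: GAPDH, its testis paralog GAPDHS, HK1, HK2, GPI, ALDOA, TPI1, ENO1, PKM and LDHA. Each gene was read over its body and 10 kb either side, and a peak counted as a TSS peak when its edge lay within 1 kb of any annotated transcription start site (TSS) of the gene. The 10 windows held 149 of 245736 peaks in replicate 1 and 158 of 259745 peaks in replicate 2.

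CAMA-1 is an epithelial breast adenocarcinoma line, grown here as untreated adherent cells in DMEM with serum. Chromatin accessibility was measured by ATAC-seq, in which the Tn5 transposase cuts and tags open DNA, in 2 biological replicates of 50000 cells each that form a single condition. Peaks had been called in each replicate separately, and each peak carries a fold enrichment, the ratio of its height to a background level. The libraries had been checked by qPCR at GAPDH as an open locus before sequencing, so accessibility at GAPDH was part of how the libraries were accepted. All 6 epithelial breast markers read (EPCAM, KRT8, KRT18, KRT19, GATA3 and FOXA1) had a TSS peak in both replicates, with mean fold enrichments of 49.2 to 143, where 79.3% of all protein-coding genes had such a peak. Of the markers of other cell types given here, PTPRC, CD3E, PECAM1 and ALB had no TSS peak in either replicate, while COL1A1 had one at 70.3. No peak covered the canonical start of any of them in both replicates.

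Glycolysis splits glucose into pyruvate, with a net gain of ATP and NADH, and lactate dehydrogenase turns pyruvate into lactate when NADH must be recycled. Most steps are run by several isozymes, some made in nearly every cell and some kept to the liver, muscle, brain or testis. GAPDH, the enzyme that oxidises glyceraldehyde-3-phosphate, is so widely expressed that its promoter serves as a standard open control, whereas GAPDHS does the same chemistry in sperm. Many cancer cells run glycolysis at high rates, and hypoxia-inducible factors and MYC are known activators of its genes.

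The promoters of 3 members are shown, GAPDHS for its start without a peak, and HK2 and LDHA for the sites known for hypoxia-inducible factors and MYC. Each holds the 250 bases before the canonical start on hg38, read 5′ to 3′ along the gene, and capitals mark matches to the motifs named after them. GAPDHS lies at chr19:35533206-35533455, HK2 at chr2:74833877-74834126 and LDHA at chr11:18394313-18394562, all on the plus strand.
GAPDHS promoter: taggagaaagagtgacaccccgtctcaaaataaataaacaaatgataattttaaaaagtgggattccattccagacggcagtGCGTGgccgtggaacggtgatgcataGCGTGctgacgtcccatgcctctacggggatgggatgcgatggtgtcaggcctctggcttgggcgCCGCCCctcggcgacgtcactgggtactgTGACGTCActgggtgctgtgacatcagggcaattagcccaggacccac
HK2 promoter: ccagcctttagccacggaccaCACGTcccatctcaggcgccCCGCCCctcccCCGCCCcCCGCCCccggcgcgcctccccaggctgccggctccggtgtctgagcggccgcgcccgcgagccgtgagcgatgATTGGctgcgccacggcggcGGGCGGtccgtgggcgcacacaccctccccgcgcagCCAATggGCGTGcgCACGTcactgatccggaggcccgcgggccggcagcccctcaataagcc
LDHA promoter: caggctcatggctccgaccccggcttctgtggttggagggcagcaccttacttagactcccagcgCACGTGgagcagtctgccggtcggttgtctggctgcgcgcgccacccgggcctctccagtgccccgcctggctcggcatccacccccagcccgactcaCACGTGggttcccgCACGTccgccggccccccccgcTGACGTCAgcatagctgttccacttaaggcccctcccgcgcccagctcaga

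The motifs were searched on both strands from 250 bases before to 50 bases after the canonical start of every protein-coding gene. The hypoxia core was searched in the forms ACGTG and GCGTG, the E-box as CACGTG, which contains ACGTG, the GC box as GGGCGG, the CCAAT box as CCAAT, the ETS motif as CCGGAA and the cyclic AMP response element (CRE) as TGACGTCA. A hypoxia core of either form was found in 9 of 10 members, the exception being TPI1, and in 56.5% of all promoters. The E-box, the motif known for MYC, was found in LDHA alone among the members, with matches at -185 and -87, and in 8.76% of all promoters. A CRE was found in GAPDHS at -48 and in LDHA at -51, and in 2.69% of all promoters. GC boxes were found in 8 of 10 members against 61.3% of promoters, and 4 of 10 held a CCAAT box against 36.1%. The ETS motif was found in 4 of 10 members, HK1, GPI, ENO1 and LDHA, against 22.8%. These matches describe letters in the reference sequence and were not tested for binding.

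All 10 members had a CpG-rich promoter, defined as a GC content of at least 50% and a CpG observed to expected ratio of at least 0.6 in the same 300 bases, against 65.5% of all promoters. The median GC content was 70.3% in the members and 63.7% in all promoters. All the motifs above except the CCAAT box contain CpG, and their shares among CpG-rich promoters alone were not computed. GAPDHS had the lowest GC content of the members, 57.3%, and the lowest CpG ratio, 0.772.

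All 10 members had a TSS peak in both replicates, against a background of 79.3% of protein-coding genes. Among genes with a CpG-rich promoter, the class of all 10 members, the background was 92.0%, and among genes with a CpG-poor promoter it was 55.2%. The count of 10 of 10 lay near the background of that class. A peak lay over the canonical start itself in 9 of 10 members, the exception being GAPDHS, against 65.0% of all protein-coding genes and 84.0% of those with a CpG-rich promoter. The mean fold enrichment of the strongest TSS peak had a median of 67.3 over the members and of 52.6 over all protein-coding genes with such a peak. The members ranged from 7.75 in GAPDHS to 121 in ALDOA, and most lay in the middle of the distribution of all genes rather than at its top.

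**Figure D1:**
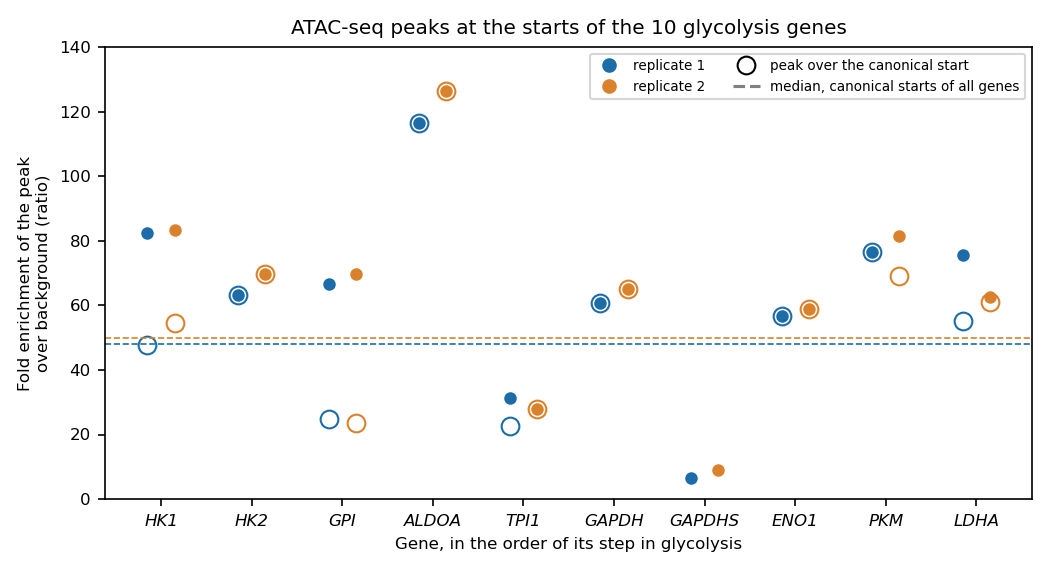
Fold enrichment over background (y axis, a ratio) of the strongest TSS peak of each glycolysis gene (x axis) in replicate 1 (blue) and replicate 2 (orange). Rings mark the strongest peak over the canonical start, and dashed lines mark the median fold enrichment of all protein-coding genes with a peak within 1 kb of the canonical start (48.1 in replicate 1 and 49.8 in replicate 2). ALDOA is the highest gene and GAPDHS the lowest in both replicates.

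The first step of glycolysis traps glucose in the cell as glucose-6-phosphate and is run by the hexokinases HK1, found in most tissues, and HK2, raised in muscle, fat and many tumors. At the HK2 start (chromosome 2, 74834127) the peak had a fold enrichment of 63.1 in replicate 1 and 69.7 in replicate 2. At the canonical HK1 start (chromosome 10, 69318847) the values were 47.6 and 54.6. At these canonical starts HK2 was the higher of the pair in both replicates, by 1.32 and 1.28 times. The 95% Poisson intervals of that ratio of heights, 1.10 to 1.60 and 1.08 to 1.51, did not include 1. These intervals cover counting error only, and an exact sign-flip test over 2 replicates cannot give a p below 0.5. HK1 had a stronger TSS peak inside the gene, at a start at 69361425, with 82.4 and 83.4. By the strongest TSS peak of each gene, HK1 was thus the higher of the pair in both replicates. Its annotated starts formed 8 clusters more than 1 kb apart, and the 3 most upstream clusters, from 69269984 to 69282555, had no peak within 1 kb in either replicate. The HK1 starts with a peak nearby were thus those from 69315785 onward.

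GPI, glucose-6-phosphate isomerase, makes fructose-6-phosphate. Its canonical start (chromosome 19, 34365196) had a weak peak of 24.9 and 23.7. A cluster of 3 annotated starts further upstream, from 34359480 to 34359734, had a peak of 66.7 and 69.7, so that the upstream cluster was the higher in both replicates. An unnamed gene also had a start within 1 kb of that region.

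ALDOA, the aldolase of muscle and most other tissues, had the strongest TSS peak of the members. It reached 116 in replicate 1 and 126 in replicate 2, above 89.97% and 91.86% of protein-coding genes with a TSS peak. The peak covered 2 clusters of starts, including the canonical one (chromosome 16, 30065760). By the strongest TSS peak, TPI1, triosephosphate isomerase, was the weakest of the broadly expressed members, with a mean of 29.6. Over its canonical start (chromosome 12, 6867531) it had 22.6 and 27.9. A second cluster of starts within the gene had 31.3 and 24.1, so that the order of its starts differed between the replicates. Over the canonical start, GPI, with 24.9 and 23.7, was lower than TPI1 in replicate 2 only.

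GAPDH (chromosome 12, 6534512 to 6538374, plus strand, Ensembl gene ENSG00000111640.15) had a TSS peak of 60.7 in replicate 1 and 65.0 in replicate 2, or 62.9 ± 3.02 (SD, n = 2). It was above 59.1% and 61.3% of protein-coding genes with a TSS peak, so the locus used as an open control was only moderately above the middle. Its height was 263 stacked reads (95% Poisson interval 232 to 297) in replicate 1 and 293 (260 to 329) in replicate 2. The peak was wide, 3366 and 3404 bp, above 99.8% of all peaks in both replicates, a rank that the HK1 peak at its canonical start reached too, with 99.8% and 99.7%. It began 2422 bp before the GAPDH start and ended 943 and 981 bp after it. A start of the divergent transcript GAPDH-DT also lay under it or within 1 kb of it. Weaker regions inside the gene had 5.29 and 7.08 and, toward the 3′ end, 11.96 and 13.27. Peaks covered 61.2% and 76.6% of the GAPDH body, against a median over all protein-coding genes of 5.13% and 5.40%. The GAPDH body is short, with 3863 bp, and this median was not matched for length.

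GAPDHS (chromosome 19, 35533455 to 35545319, plus strand, Ensembl gene ENSG00000105679.9) had no peak over its start. Its TSS peak lay in an intron and began 611 bp after the start in replicate 1 and 552 bp after it in replicate 2. The fold enrichment was 6.44 and 9.07, or 7.75 ± 1.86 (SD, n = 2), above only 5.09% and 8.65% of genes with a TSS peak. Its height was 27 stacked reads (17.8 to 39.3) in replicate 1 and 40 (28.6 to 54.5) in replicate 2.

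GAPDH exceeded GAPDHS by 9.43 times in replicate 1 and 7.17 times in replicate 2, a mean log2 ratio of 3.04 ± 0.28 (SD, n = 2). The ratio of the heights was 9.74 (95% Poisson interval 6.54 to 15.1) and 7.33 (5.25 to 10.5). GAPDH was the higher in both libraries, and the intervals of the heights did not overlap. The exact two-sided sign-flip test over the replicates gave p = 0.5, the smallest that 2 replicates allow. When TSS peaks were taken within 3 kb, the strongest GAPDHS peak became one upstream of the gene and the mean log2 ratio was 1.13. Within 100 bp of a TSS, GAPDHS had no peak in both replicates and no ratio could be formed.

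**Figure D2:**
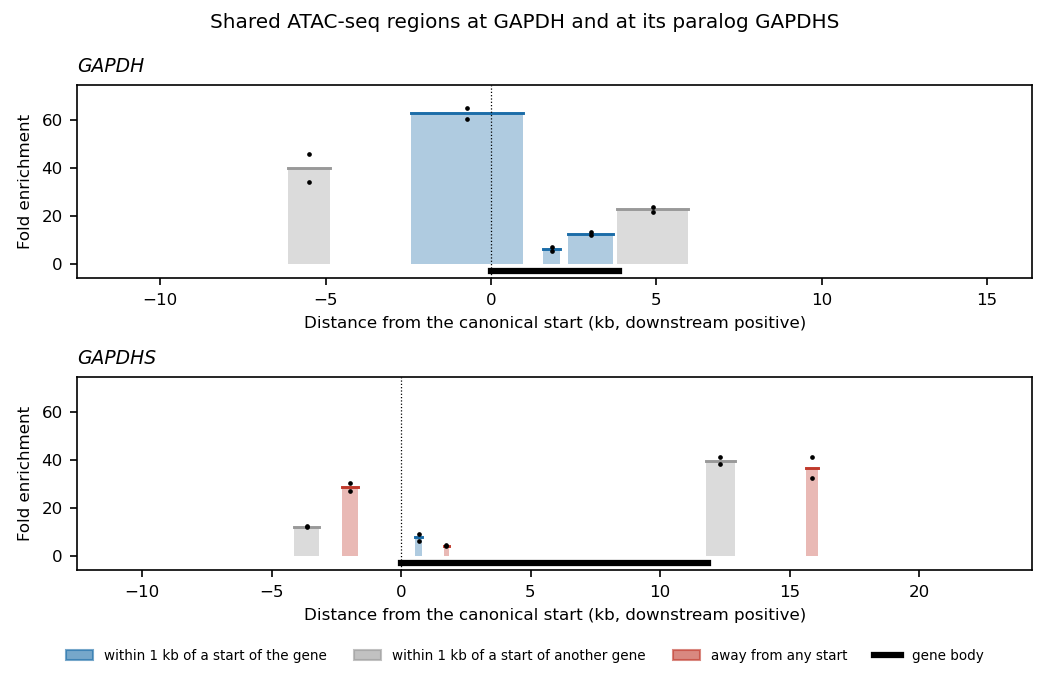
Regions found in both replicates around GAPDH (top) and GAPDHS (bottom), by distance from the canonical start in kb (x axis) and fold enrichment (y axis). Bars span each region at the mean of the replicates, dots are the replicates, colors give the nearest kind of start and the black line is the gene body. The wide GAPDH region spans the start, while the GAPDHS start falls between regions.

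The surroundings of GAPDHS were open. A region at -1977 relative to its start had 30.4 and 27.0, and one 15858 bp downstream of the start had 41.2 and 32.7, both without an annotated start within 1 kb. The region at the start of its neighbor TMEM147 had 38.4 and 41.4. The GAPDHS promoter shown above is therefore a CpG-rich sequence without a peak between open regions.

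ENO1, the widely expressed enolase, had a TSS peak of 56.8 and 58.8 at its canonical start (chromosome 1, 8878686). PKM, whose alternative splicing yields the M1 and M2 forms of pyruvate kinase, had 76.6 and 69.0 at its canonical start (chromosome 15, 72231190). A peak at an internal PKM start at 72222531 had 69.7 and 81.6, so that either start was the stronger in one replicate. LDHA, the lactate dehydrogenase subunit favored in muscle and tumors, had 55.2 and 61.0 over its canonical start (chromosome 11, 18394563). A second peak, which began 613 and 640 bp into the gene, had 75.5 and 62.6.

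GAPDH and its fellow members were also ranked among genes within 5 Mb, since DNA copy number was not measured in these files and neighbors share much of it. GAPDH stood above 87.3% and 89.2% of its 79 neighbors with a TSS peak, whose median was 26.5 and 27.9. TPI1, on the same arm, stood above 40.3% and 48.7% of its neighbors. ALDOA stood above 88.4% and 90.6%, and GAPDHS above 7.19% and 10.8%. GAPDH therefore ranked higher among its neighbors than among all genes, whereas ALDOA and GAPDHS ranked about alike on both scales. PKM stood above 82.4% and 79.1%, LDHA above 85.4% and 73.2%, HK2 above 68.2% and 75.3%, ENO1 above 64.0% and 66.2%, HK1 above 58.8% and 66.7% and GPI above 27.8% and 23.4% of their neighbors. These ranks used the peak within 1 kb of the canonical start. Neighbors were not matched in promoter class.

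The windows held 133 regions found in both replicates. Of the peaks, 141 of 149 in replicate 1 and 147 of 158 in replicate 2 overlapped a peak of the other replicate. Of the regions, 37 lay at a start of the member, 12 at a start of another gene and 84 away from any annotated start. Most of these 84 were intronic, with 54 in introns, 3 in exons and 27 outside the gene body. HK1 held 23 of them and HK2 held 21, ENO1 held 13, and GAPDH held 0. Per 10 kb of window, ENO1 had the most peaks, 5.50 and 5.76, followed by ALDOA with 5.32 and 5.71, and GPI had the fewest, 1.43 in replicate 1 and 1.75 in replicate 2. Peaks covered 82.7% and 70.3% of the ALDOA body, 49.1% and 52.4% of the TPI1 body and 48.1% and 44.1% of the ENO1 body. LDHA, with a body of 13866 bp, was covered over 18.3% and 15.2%, and GAPDHS, with 11865 bp, over 5.62% and 4.04%, close to the median of all genes. The shortest members, TPI1 with 3830 bp, GAPDH with 3863 bp and ALDOA with 6294 bp, were the most covered in both replicates. Members longer than ENO1 were less covered than it. PKM had 25.0% and 26.2%, HK2 22.1% and 23.1%, HK1 17.7% and 18.7% and GPI 10.4% and 11.85%. ENO1 itself, with 18191 bp, was covered more than the shorter LDHA and GAPDHS. A relation of coverage to length was not tested.

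In 7 of 10 members, a region away from any start was stronger than every TSS peak of the gene in both replicates. The members were HK1, HK2, TPI1, GAPDHS, ENO1, PKM and LDHA, and the exceptions were GAPDH, GPI and ALDOA. The same held for 31.2% of protein-coding genes and for 32.8% of those with a body of at least 10 kb. When regions were taken from gene bodies only, the count was 4 of 10. The shares above were computed with 10 kb either side, and none was computed for gene bodies only.

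The 3 strongest of these regions in HK1, HK2 and PKM are shown because each exceeded the promoter of its own gene. Each sequence is the central 200 bases of the region on the plus strand of hg38, at chr10:69345363-69345562, chr2:74845227-74845426 and chr15:72226614-72226813, all intronic. Regions were searched for another set of motifs than promoters: the hypoxia core, E-box and ETS motifs above with AP-1, AP-2, forkhead, GATA, estrogen response element and CTCF motifs, and without the GC, CCAAT and CRE motifs. None of this set matched in these 3 sequences, so no base is in capitals. The deposited lists give no summits, so the center of a region need not be its highest base.
HK1 intronic region: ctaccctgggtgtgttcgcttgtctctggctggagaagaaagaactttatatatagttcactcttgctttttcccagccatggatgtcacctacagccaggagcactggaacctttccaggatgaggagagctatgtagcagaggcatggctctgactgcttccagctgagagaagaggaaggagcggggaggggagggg
HK2 intronic region: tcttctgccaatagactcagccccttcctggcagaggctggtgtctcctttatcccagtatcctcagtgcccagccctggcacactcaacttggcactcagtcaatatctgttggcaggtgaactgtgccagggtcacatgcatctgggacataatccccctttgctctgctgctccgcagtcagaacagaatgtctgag
PKM intronic region: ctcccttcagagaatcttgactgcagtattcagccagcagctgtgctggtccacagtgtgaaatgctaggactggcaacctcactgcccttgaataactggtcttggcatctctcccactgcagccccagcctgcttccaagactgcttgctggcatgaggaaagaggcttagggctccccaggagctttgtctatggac

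The HK1 region, 26616 bp downstream of the canonical start, had a fold enrichment of 141 in replicate 1 and 148 in replicate 2. It ranked above 99.55% and 99.63% of all peaks, and it exceeded the strongest HK1 TSS peak by 1.71 and 1.78 times. Further HK1 introns held regions of 115 and 119, of 100.8 and 107.9, and of 83.1 and 99.3. The first of these lay 56898 bp, the next 66656 bp and the last 14838 bp downstream of the canonical start. All 4 exceeded the peak over that start in both replicates.

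HK2 had its strongest region 11200 bp downstream of its start, with 131 and 145, which was 2.08 and 2.09 times its TSS peak. A second HK2 region 33933 bp downstream had 84.0 and 90.9. In PKM, the region 4476 bp downstream of the start had 118 and 125, or 1.54 and 1.53 times the strongest PKM TSS peak. ENO1 had a region of 94.6 and 94.6 in an exon 4750 bp downstream of its start, 1.66 and 1.61 times its TSS peak. LDHA had one of 87.7 and 81.2 at -10453, 1.16 and 1.30 times its TSS peak. ALDOA, in contrast, had its strongest region away from a start at -4726, with 101 and 103, below its own TSS peak in both replicates. GPI had none above 0.184 times its strongest TSS peak. The excess was thus largest in GAPDHS, whose TSS peak was weak, and among the other members in HK2.

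**Figure D3:**
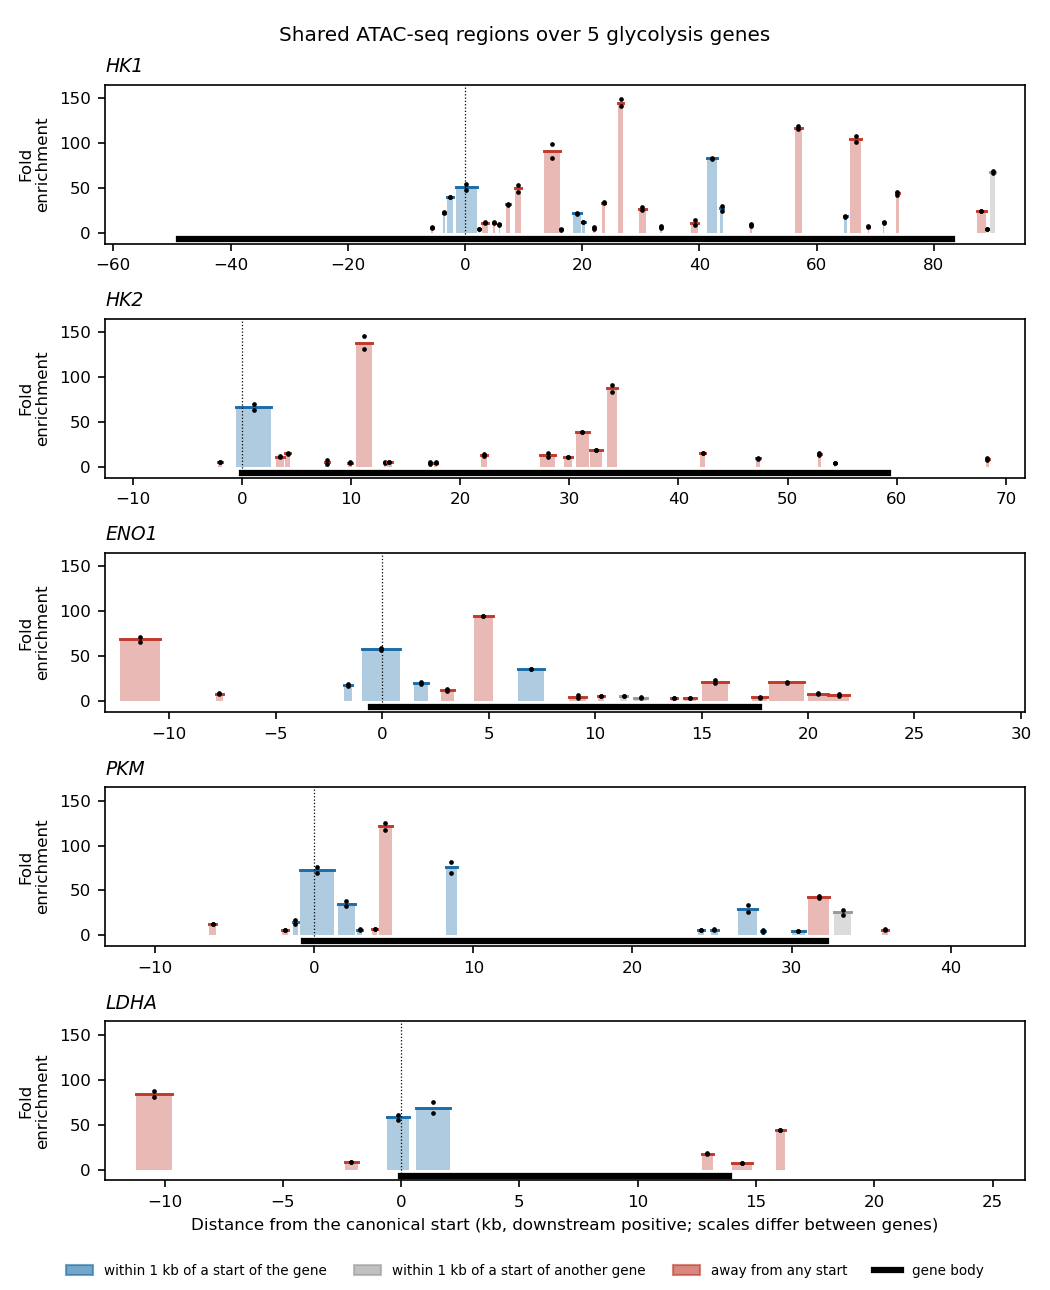
Regions found in both replicates over HK1, HK2, ENO1, PKM and LDHA, by distance from the canonical start in kb (x axis, with a scale for each gene) and fold enrichment (y axis, shared). Bars span each region at the mean of the replicates, dots are the replicates, and the black line is the gene body. In each gene at least 1 region away from any start (red) stands above the regions at starts (blue).

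The central 200 bases of the 84 regions were compared with those of 172293 regions away from starts in the whole genome. AP-1 motifs (TGANTCA) were found in 10.71% of the former and 10.97% of the latter. Forkhead motifs (TGTTTAC) were found in 2.38% and 6.22%, AP-2 motifs (GCCNNNGGC) in 11.9% and 10.2%, and GATA motifs (AGATAA) in 8.33% and 10.3%. The hypoxia core was found in 5.95% against 10.1% in the form ACGTG and in 10.7% against 11.7% in the form GCGTG, so that neither form was more frequent than in all regions. The ETS motif was found in 3.57% and 2.28%. The E-box was found in 0 of the 84 regions against 3.15% of all, CTCF motifs in 0 against 2.54% and the estrogen response element in 0 against 0.0197%. With 84 regions that share genes, these shares were not tested.

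The other genes of glycolysis were read in 4 lists. Of 6 broadly expressed partners, 5 had a TSS peak in both replicates, or 83.3%, near the background of 79.3% of protein-coding genes. PGK1, phosphoglycerate kinase, was the strongest at 75.9 and 88.9, and PFKL, the liver-type phosphofructokinase, followed at 37.7 and 37.6. LDHB, the lactate dehydrogenase subunit favored in heart, was without a TSS peak in either replicate, and its nearest peak lay 1549 and 1505 bp from a start with only 4.60 and 4.64. Its promoter was CpG-poor, with a CpG ratio of 0.549. LDHA and LDHB thus differed in that LDHA had strong TSS peaks in both replicates and LDHB none.

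Of 16 tissue-restricted isozymes, 12 had a TSS peak in both replicates, or 75% against the background of 79.3%. A peak covered the canonical start of 7 of the 16, against 65.0% of all protein-coding genes. BPGM, the bisphosphoglycerate mutase known from red blood cells, had 243 and 233, the strongest of any gene in the glycolysis lists. ALDOC, the aldolase of brain, had 85.6 and 82.9. HKDC1 and the testis isozymes LDHC, LDHAL6A and LDHAL6B had no TSS peak in either replicate. Each had a peak 1540 to 1994 bp from a start, and within 3 kb the count was 16 of 16. The share of all protein-coding genes with a peak within 3 kb was not computed, so that count cannot be read as high or low. The peak nearest to LDHC, with 43.7 and 43.6, was the region 16028 bp downstream of the LDHA start. LDHC, LDHAL6A and LDHAL6B shared with GAPDHS a CpG-rich promoter without a peak over the canonical start. Of all genes with a CpG-rich promoter, 84.0% had such a peak in both replicates. FBP1, a gluconeogenesis enzyme, also had a CpG-rich promoter without one. Over 500 bases either side of the start, the LDHAL6B ratio was 0.573, below the cut of 0.6. PGK2, the testis phosphoglycerate kinase, differed, with a CpG-poor promoter (ratio 0.334) and a TSS peak of 7.13 and 11.5.

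All 12 genes of transport and control had a TSS peak in both replicates, against 79.3% of all protein-coding genes and 92.0% of those with a CpG-rich promoter. The lowest mean fold enrichment was 6.28, and the count was 11 at a −log10 q of at least 10. The share of all protein-coding genes at that cut was not computed. A peak covered the canonical start of 11 of the 12, against 65.0% of all protein-coding genes. HIF1A, the hypoxia-inducible factor subunit, had 149 and 149, and SLC16A3, a lactate exporter, had 123.6 and 134.7. Of 6 gluconeogenesis enzymes, which run the pathway in reverse, 3 had a TSS peak, or 50.0% against 79.3%. PC, pyruvate carboxylase, had 199 and 193, and PCK2, the mitochondrial phosphoenolpyruvate carboxykinase, had 84.0 and 90.2. G6PC1, FBP1 and FBP2, phosphatases of that pathway, had none in either replicate, although FBP1 held 8 and 9 peaks within its body. The medians of the mean fold enrichments were 36.7 in the partners, 34.4 in the isozymes, 70.8 in transport and control and 87.1 in gluconeogenesis, each over the genes that passed in both replicates, beside 67.3 in the members.

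**Figure D4:**
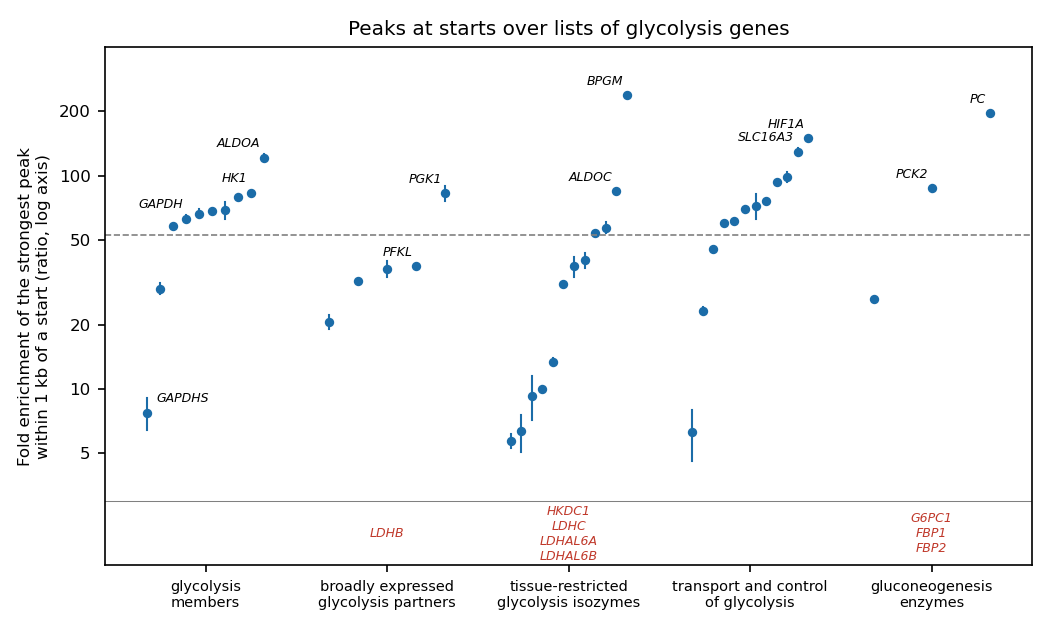
Fold enrichment of the strongest TSS peak (y axis, log scale) of the genes of each list (x axis). Points are means of the replicates, vertical lines join the replicates, the dashed line is the median of all protein-coding genes with a TSS peak (52.6), and names below the solid line are genes without a TSS peak in both replicates. ALDOA is the highest member and BPGM the highest gene of all lists.

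Retrocopies of glycolysis genes share sequence with them and can draw or lose reads in alignment. GAPDH had 65 pseudogenes by symbol, 64 of them processed copies, and 1 of the 65 had a peak in both replicates. A peak in both replicates was also found at 1 of 2 copies of ALDOA, 1 of 4 of TPI1, 1 of 4 of ENO1 and 1 of 5 of PKM. It was found at 0 of 6 copies of LDHA and at 0 of 1 of HK2. The share of all pseudogenes with such a peak was not computed, so these counts cannot be read as high or low. The processed copies lack the promoter, and the treatment of multiply mapped reads is not given in the sources used here.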

How the data were processed

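ATAC-seq peaks of CAMA-1 (2 biological replicates, 1 condition) were analysed. According to the submitters' notes, the authors used Trim Galore 0.6.5, Bowtie2 2.3.5.1, MACS2 2.2.6 and hg38. MACS2 settings and the handling of duplicates are not given in the sources used here. Each deposited peak has 4 values: a score that equals 10 times the −log10 q rounded down, the fold enrichment (the ratio of signal to background), −log10 p-values and −log10 q-values. No read counts or depths were used, and precision was taken from peak heights.

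Fold enrichments were whole multiples of a step (0.230 in replicate 1 and 0.221 in replicate 2), taken as (height + 1) / (background + 1), which gave heights with exact 95% Poisson intervals for counting error only. The replicates' median heights were 35 and 35. Peaks of the replicates were matched by an overlap of 1 bp. Genes and starts came from GENCODE release 44, with the canonical start that of the Ensembl canonical transcript, and promoter sequences from hg38. Percentiles were computed among protein-coding genes with a TSS peak in the same replicate. Motifs were exact matches. No test was run across genes, and the only p is an exact permutation test.

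The members and lists were chosen with earlier results of these data known. All 10 members are named, and of each further list every gene without a TSS peak in both replicates and the 2 strongest by mean fold enrichment. The marker genes were named in addition, except 1 that is not reported here, and 1 promoter sequence is not reported here either. TMEM147, PGK2 and the FBP1 peak counts and promoter class were named after their values were seen. Alternatives were stricter peak lists, other distances and starts, other measures of strength, other windows and the omission of each replicate. On simulated peaks, 400 of 400 starts made with a peak and 1000 of 1000 heights were recovered. Scripts ran in Python 3.11.15 with scipy 1.17.1, numpy 2.4.6 and, for plots, matplotlib 3.10.9.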

Additional observations from a re-analysis of the deposited data

How the results depend on the processing

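Of 67 alternatives computed over 10 results, 0 reversed a direction and 8 moved a count by over 1.5 times or a median percentile by over 1 SD of the replicates. The log2 ratio of GAPDH to GAPDHS was judged by its sign alone, and its size did change: it was 3.04 ± 0.279 (SD, n = 2) as reported, 1.13 with TSS peaks within 3 kb, 4.397 by the score and 4.39 by the −log10 q, and it had no value within 100 bp. The median percentile of the members' TSS peaks was 63.1 as reported (± 0.168 SD, n = 2), 63.8 within 100 bp of a TSS, 65.7 within 3 kb, 64.6 with the single most 5′ TSS and 60.2 with the canonical TSS only. With the single most 5′ TSS, 3 of the broadly expressed partners had a TSS peak in place of 5. Among the 50000 strongest peaks, 7 tissue-restricted isozymes had one in place of 12. The windows held 153.5 peaks on average and 285.5 with 50 kb either side. The count of members with a stronger region away from any TSS was 4 in place of 7 with gene bodies only. No share of all protein-coding genes was computed for these altered counts. These alternatives differ in the starts, peaks or bases they admit. Without either replicate in turn, the median percentile was 62.9 to 63.2, the log2 ratio of GAPDH to GAPDHS 2.84 to 3.24 and the number of peaks 149 to 158. The canonical TSS and the windows for stronger regions were chosen as alternatives after seeing the data.

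No paired analysis was possible because the replicates form a single condition, with no groups to pair. Read depth, summits, copy number and gene expression were not analysed here, and the smallest p of the test over 2 replicates is 0.5.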
